A study of Mus musculus with 40 samples.

Results

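The kinesin and dynein motor genes were followed through the cell fractions of 2 groups of neurons. Members were protein-coding mouse genes whose symbol begins with Kif as those of kinesin heavy chains do, or names a kinesin light chain (Klc1 to Klc4), a dynein subunit (Dync or Dynl) or a dynactin subunit (Dctn1 to Dctn6), and that had at least 10 counts in at least 5 of the 40 libraries. This gave 63 members of the 14547 protein-coding genes that met the same minimum, out of 69 symbols that matched. This takes in Kif1bp, a kinesin-binding protein that is not itself a motor. Kif12, Kif18b, Kif2b, Kifc1, Kifc5b and Klc3 did not reach the minimum. The choice used the counts only to ask whether a gene was detected, not how it differed between samples.

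The samples came from mice aged 21 d of 2 lines that carry the same Cre-dependent reporter, a ribosomal protein Rpl10a fused to EGFP, which allows translating ribosome affinity purification (TRAP). In RBP4-TRAP the reporter was switched on by Tg(RBP4-cre)KL100Gsat/Mmcd, which marks layer 5 pyramidal cells, and in VGAT-TRAP by Slc32a1tm2(cre)Lowl/J, which marks GABAergic neurons. Each replicate was a pool of forebrains of both sexes (the labels name the tissue cortex), and each pool gave 4 libraries: whole-cell homogenate (WCH), ribosomes captured from it (TRAP), the synaptoneurosome fraction (SNF), which is enriched in pinched-off synapses, and ribosomes captured from that fraction (ST, for SynapTRAP). Each line had 5 replicates, hence 5 libraries in each of the 8 groups. All groups carried a Cre driver and the reporter, and no group lacked them.

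Kinesins and cytoplasmic dynein walk along microtubules and carry cargo between the cell body and the processes of a neuron. Most kinesins move toward the plus end of a microtubule, which lies outward in an axon, and dynein, with its partner complex dynactin, moves toward the minus end. Kinesin-1 is built of heavy chains (Kif5a, Kif5b, Kif5c) that hold the motor and light chains (Klc) that bind cargo, and kinesin-3 motors such as Kif1a carry synaptic vesicle precursors. Dynein-1 is built around the heavy chain Dync1h1, with intermediate, light intermediate and light chains that join it to dynactin and cargo.

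Total counts per library ran from 14259535 to 22037703 (median 17143957), of which mitochondrial genes held 0.0584% to 41.9%. After these and the rRNA and tRNA genes were taken out (390 genes in all), 8950847 to 21976631 counts were left, so that 1 count was worth 0.0455 to 0.112 cpm (counts scaled to a common library size of 1000000). In TRAP all 5 GABAergic markers were lower in RBP4 than in VGAT, and of the 5 layer 5 markers 4 were higher and 1 lower. Slc32a1 stood at 48.4 to 77.2 cpm in VGAT TRAP and 1.49 to 4.99 cpm in RBP4 TRAP, and Fezf2 at 4.10 to 18.6 and 79.5 to 167.5 cpm. The ST library of RBP4 replicate 4 stood apart in Slc32a1, at 49.9 cpm. The other RBP4 ST libraries held 10.8 to 19.7 cpm and the VGAT ST libraries 23.3 to 51.4 cpm. The 5 GABAergic markers together summed to 205.4 to 329.9 cpm in RBP4 ST and 257.7 to 705.9 cpm in VGAT ST. These ranges overlap, so the sum cannot tell whether the replicate 4 library is out of place. The main counts of members called in comparisons with RBP4 ST are also given without that library. Counts by role, by transcript length, of rare members, of markers and of adaptors and regulators are given only with it. Glial markers moved with the fractions: 8 oligodendrocyte markers summed to a median of 7768 cpm in WCH, 964.8 in TRAP, 16110 in SNF and 34320 in ST of the RBP4 line, and 8 astrocyte markers to 5174, 838, 16400 and 13660 cpm. The same sums in the VGAT line were 7752, 651, 16940 and 44070 cpm for oligodendrocytes and 5092, 544.5, 16380 and 19650 cpm for astrocytes. In all bulk samples of this kind, fewer cells of a type and less RNA per cell cannot be told apart, and the part of the glial RNA in the differences between fractions was not tested.

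Several members are near copies of each other, which matters for reading their counts from 50-base reads kept only where they aligned uniquely. The cytoplasmic light chain genes Dynll1 and Dynll2 encode closely related small subunits, and 219 of the 270 bases of their coding sequences (81.1%) were identical. The start of each coding sequence is shown as an example of how the genes differ. It was read from the GRCm38 genome with GENCODE M21 gene models at chr5:115300615-115300644 for Dynll1 and chr11:87983974-87984003 for Dynll2, both on the minus strand. Capitals mark the 5 bases that differ from the other gene.
Dynll1: atgtGCgaccggaaggcGgtgatcaaAaaT
Dynll2: atgtCTgaccggaaggcAgtgatcaaGaaC
The Tctex-type light chain genes Dynlt1a, Dynlt1b, Dynlt1c and Dynlt1f lie on chromosome 17 and cannot be separated in this way. The coding sequences of Dynlt1a, Dynlt1c and Dynlt1f were identical over all 342 bases, and Dynlt1b shared 341 of them. Counts for these genes are therefore uncertain. Reads are biased to the 3′ end, and the 3′ UTRs, of 1586 bases in Dynll1 and 1908 in Dynll2, were not compared. Coding identity alone thus does not settle how far reads separate the genes of either set. The starts of Dynlt1a and Dynlt1f are shown for the contrast with the pair above.
Dynlt1a: atggaagacttccaggcctccgaggagact
Dynlt1f: atggaagacttccaggcctccgaggagact

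The motor genes were well represented. Of the 63 members, 43 had at least 10 counts in all 40 libraries and 40 had a mean of at least 5 cpm, while Dynlt1c, Kif14, Kif19a, Kif28 and Kif2c reached 10 counts in 10 libraries or fewer. All 63 members passed the filter on low values for the tests in the VGAT line, and all but Dynlt1c in the RBP4 line and between lines. Together the members held 0.905% ± 0.0624 (SD, n = 5) of the counts in WCH of the RBP4 line and 0.897% ± 0.0167 in WCH of the VGAT line, and 1.16% ± 0.308 and 1.17% ± 0.151 in ST. Levels per length are given as RPKM, cpm per kilobase of the gene length that was deposited with the counts. Averaged over all libraries, the small dynein light chain gene Dynlrb1 stood highest at 515.8 RPKM. It was followed by Kif5a at 163, Dynll1 at 145, Kif5c at 131, the dynactin gene Dctn2 at 127 and Kif1a at 124 RPKM. This order depends on the length used. For Kif1b, at 66.6 RPKM, the deposited length was 17608 bases and an annotated transcript 5992. For Dynll1 these were 2926 and 2030 bases. The cDNA was primed from the poly(A) tail, which biases reads to the 3′ end, so that levels per length may be too low for long transcripts.

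The share of the large transport motors changed between fractions. Kif1a, Kif1b, Kif5a, Kif5b, Kif5c and Dync1h1 together held 41.2% ± 6.02 of all motor counts in WCH of the RBP4 line (SD, n = 5), 26.5% ± 8.82 in TRAP, 67.2% ± 5.04 in SNF and 66.4% ± 8.17 in ST. The same share in the VGAT line was 39.2% ± 3.99, 27.0% ± 3.85, 66.7% ± 4.70 and 68.5% ± 4.07. Counts grow with transcript length, so these shares compare fractions and not genes.

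The first comparison, SNF against WCH, asks which transcripts were held in the synaptic fraction, whatever the cell type. All 3 kinesin-1 heavy chain genes rose in SNF of both lines. Kif5a, on chromosome 10 (127225696 to 127263363, minus strand, GRCm38 as in the gene table of the files), was at 357, 400, 500, 568 and 932 cpm in the 5 WCH libraries of the RBP4 line and at 1317, 1372, 1374, 1564 and 1588 cpm in SNF. In the VGAT line it was at 389, 449, 570, 640 and 711 cpm in WCH and at 969, 1159, 1310, 1413 and 2453 cpm in SNF. No SNF library of either line reached down to a WCH library of that line, and the log2 fold change was 1.39 ± 0.32 (SE) in RBP4 and 1.41 ± 0.25 in VGAT (adjusted p = 0.00151 and 5.13e-05, edgeR quasi-likelihood test over all genes).

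Kif5b and Kif5c moved the same way by less. Kif5b, the family member that most cell types express, rose by 0.65 ± 0.24 and 0.78 ± 0.20 on the log2 scale (adjusted p = 0.0258 and 0.00207, edgeR). Kif5c, largely a neuronal motor, rose by 0.83 ± 0.28 and 0.84 ± 0.20 (adjusted p = 0.018 and 0.000814, edgeR). Replicate 3 gave the highest SNF library for both genes in each line, and its SNF libraries held 40.2% and 41.9% mitochondrial counts where the others held 11.2% to 19.4%, whose part in these values was not tested. Kif5c was at 790, 846, 935, 1152 and 2121 cpm in RBP4 and at 779, 1005, 1014, 1100 and 1797 cpm in VGAT. Within the family, the share of reads per kilobase shifted toward Kif5a, which held 40.5% in WCH and 53.5% in SNF of the RBP4 line, and 41.5% and 51.8% in the VGAT line. The log2 ratio of Kif5a to Kif5b rose by 0.66 in the VGAT line (adjusted p = 0.0326, exact permutation test) and by 0.88 in the RBP4 line (adjusted p = 0.0558, exact permutation test). The ratio was higher in SNF in 5 of 5 pools of each line, but the test did not pair libraries by pool. The log2 ratio of Kif5a to Kif5c rose by 0.58 in VGAT and by 0.74 in RBP4 (adjusted p = 0.0326 and 0.205, exact permutation test). The Kif5a share overlapped in RBP4, at 31.9% to 55.4% in WCH and 39.9% to 63.0% in SNF. In VGAT it did not, at 34.2% to 45.8% and 48.0% to 54.1%.

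**Figure D1:**
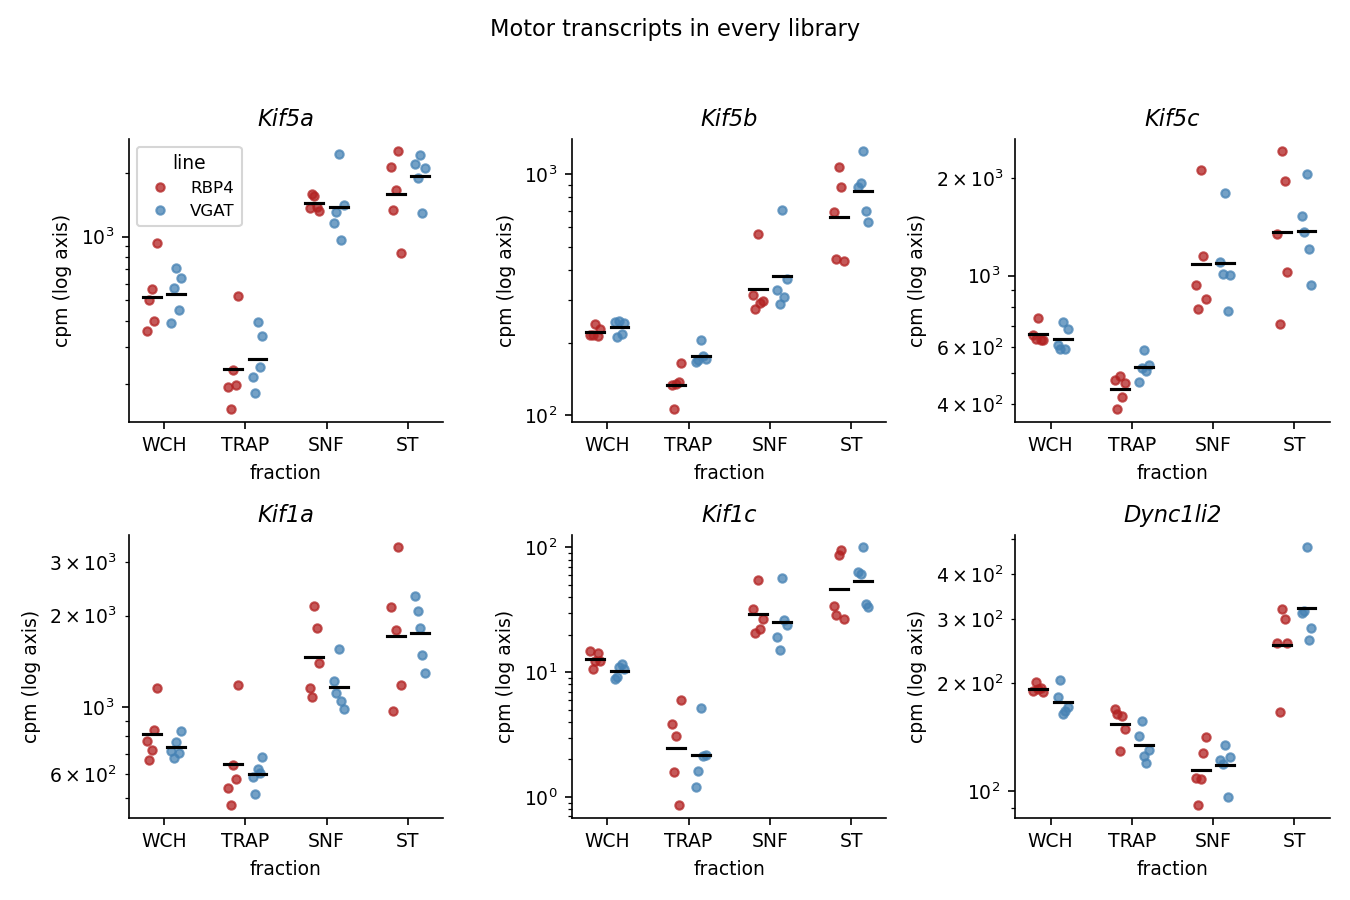
Level in cpm (log axis) of Kif5a, Kif5b, Kif5c, Kif1a, Kif1c and Dync1li2 in each of the 40 libraries, by fraction and line. Points are libraries and black bars geometric means of 5 replicates. Kif5a lies between 969 and 2453 cpm in the 10 SNF libraries and between 357 and 932 cpm in WCH, and the geometric mean of Dync1li2 is lower in SNF than in WCH on plain library sizes, a difference not called with TMM factors, and highest in ST.

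Beside kinesin-1, few motors rose in SNF. Across the members, 6 of 62 rose in the RBP4 line, where 13.4% of all 17043 genes did, and 8 of 63 in the VGAT line, where 19.3% of 16990 genes did. With TMM scaling factors in place of plain library sizes, 8 and 9 rose (19.3% and 24.6% of all genes). The 6 of the RBP4 line (Kif1a, Kif1c, Kif4, Kif5a, Kif5b and Kif5c) all rose in the VGAT line too. Kif1a, the vesicle motor, rose by 0.87 ± 0.30 and 0.68 ± 0.16 on the log2 scale (adjusted p = 0.0211 and 0.000699, edgeR). Kif1c, a related kinesin-3 of Golgi-derived and other vesicles, was rarer and rose by 1.28 ± 0.40 and 1.45 ± 0.35 (adjusted p = 0.0121 and 0.00107, edgeR), from 10.6 to 14.9 cpm in WCH of the RBP4 line to 20.8 to 54.6 cpm in SNF. Kif4, a chromosome motor of dividing cells, was near the detection limit at 0.555 to 1.42 cpm in all WCH libraries and rose by 1.4 ± 0.52 and 1.06 ± 0.36 (adjusted p = 0.0296 and 0.0142, edgeR).

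The RBP4 calls leaned on single pools. Without replicate 3, Kif5a was the only member that still rose in SNF of the RBP4 line, and without replicate 4 only Kif5a and Kif1c did, whereas in the VGAT line 7 or 8 members rose whichever replicate was left out. The additional genes of the VGAT line were the dynein heavy chain Dync1h1 and the minus-end kinesin Kifc2, a neuronal member of kinesin-14, which rose by 0.32 ± 0.12 (adjusted p = 0.0284, edgeR). In RBP4, Kifc2 differed by 0.27 (adjusted p = 0.26, edgeR), and it passed with TMM factors. Kif1b, the mitochondrial and vesicle motor of kinesin-3, differed by 0.43 in RBP4 and 0.34 in VGAT and passed in both lines only with TMM factors (adjusted p = 0.0295 and 0.0034, edgeR).

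Dync1h1, which holds the motor of cytoplasmic dynein, was the only dynein gene called higher, and only in the VGAT line. In the VGAT line it was at 223, 235, 240, 246 and 252 cpm in WCH and at 233, 591, 621, 688 and 799 cpm in SNF, a rise of 1.29 ± 0.32 on the log2 scale (adjusted p = 0.00113, edgeR). In the RBP4 line it was at 197, 221, 229, 249 and 694 cpm in WCH and at 282, 589, 640, 652 and 795 cpm in SNF, a difference of 0.90 ± 0.51 (adjusted p = 0.144, edgeR). Replicate 5 held the high WCH library of the RBP4 line and replicate 3 the low SNF library of both lines. With the pools as a block, which compares the fractions within a pool, the RBP4 difference passed as well (adjusted p = 0.0315, edgeR).

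More members fell than rose in SNF, in shares near those of all genes. In all, 24 of 62 members fell in the RBP4 line and 31 of 63 in the VGAT line, where 36.1% and 45.2% of all genes fell. In both lines 22 members fell, which is 91.7% of the RBP4 list and 71% of the VGAT list. The same overlap was not computed over all genes, so whether it is particular to the motor genes was not tested. Plain library sizes put the median of all genes at −0.50 in RBP4 and −0.52 in VGAT on the log2 scale, and the members' median was −0.62 and −0.61. With TMM factors the medians of all genes were −0.17 in both lines, 12 and 22 members fell (17.9% and 27.9% of all genes), and 12 fell in both lines: Dctn5, Dctn6, Dync1i2, Dync1li1, Dynll1, Kif1bp, Kif21a, Kif2a, Kif3a, Kif3b, Kif3c and Klc2.

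All 4 kinesin-2 genes fell in SNF of both lines. Kif3a, a partner in the heterodimers that build cilia and carry vesicles, was at 242, 300, 314, 331 and 358 cpm in WCH and at 90.4, 124, 144, 178 and 188 cpm in SNF of the RBP4 line, and fell by 1.09 ± 0.20 on the log2 scale there and by 1.19 ± 0.15 in VGAT (adjusted p = 0.000289 and 1.19e-06, edgeR). Its partners Kif3b and Kif3c fell by 0.97 and 1.22 in RBP4 and by 1.21 and 1.29 in VGAT, each with an adjusted p of at most 0.000202 (edgeR), and no SNF library of these 3 genes overlapped with WCH of the same line. The fourth, Kif17, which carries receptors in dendrites, fell by 0.76 and 0.96 (adjusted p = 0.0106 and 0.000124, edgeR), a call lost in RBP4 with TMM factors. Kif2a, a kinesin-13 that takes microtubules apart, fell by 1.22 ± 0.18 and 1.34 ± 0.12 (adjusted p = 9.34e-05 and 6.21e-08, edgeR). Kif21a, a kinesin-4 that limits microtubule growth, fell by 0.96 and 0.95 (adjusted p = 0.000912 and 1.87e-05, edgeR), while its close relative Kif21b differed by −0.23 and −0.27 (adjusted p = 0.411 and 0.0712, edgeR). The ratio of Kif21a to Kif21b fell by 0.77 in RBP4 and by 0.72 in VGAT on the log2 scale (adjusted p = 0.0326 in each, exact permutation test).

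Of the 3 kinesin light chains, Klc1 and Klc2 fell in SNF of both lines and Klc4 differed by −0.11 in RBP4 and 0.09 in VGAT, neither of which passed. Klc2 was at 26.5, 29.0, 30.7, 31.7 and 35.8 cpm in WCH of the RBP4 line and at 10.2, 12.2, 14.6, 18.7 and 20.3 cpm in SNF, and fell by 1.02 ± 0.20 there and by 1.08 ± 0.14 in VGAT on the log2 scale (adjusted p = 0.000416 and 1.49e-06, edgeR). Klc1, the more abundant light chain, fell by 0.64 ± 0.20 in RBP4 (adjusted p = 0.0131, edgeR), a call lost with TMM factors (adjusted p = 0.22), and by 0.90 in VGAT (adjusted p = 5.38e-05, edgeR).

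Among the subunits that surround the dynein heavy chain, the intermediate and light intermediate chains fell in both lines, with 3 of 8 light chains tested in RBP4, 5 of 9 in VGAT, and 3 and 6 of the 6 dynactin genes. With TMM factors 1 and 2 intermediate, 1 and 1 light intermediate, 1 and 3 light chains and 2 and 4 dynactin genes fell in RBP4 and VGAT. Of all genes, 36.1% and 45.2% fell on plain library sizes and 17.9% and 27.9% with TMM factors. The intermediate chain Dync1i2, which binds dynactin, fell by 1.07 ± 0.16 and 0.96 ± 0.14 on the log2 scale (adjusted p = 0.0001 and 3.58e-06, edgeR), and its neuronal relative Dync1i1 by 0.96 and 1.23 (adjusted p = 0.00893 and 4.28e-05, edgeR), a call lost in RBP4 with TMM factors. The light intermediate chain Dync1li1, which links dynein to cargo adaptors, fell by 1.0 ± 0.24 and 1.30 ± 0.18 (adjusted p = 0.00168 and 2.26e-06, edgeR). Of the dynactin genes, Dctn2, Dctn5 and Dctn6 fell in both lines, among them Dctn5 from 185 to 267 cpm in WCH to 97.4 to 147 cpm in SNF of the RBP4 line, a fall of 1.01 (adjusted p = 0.000339, edgeR), and of 1.01 in VGAT (adjusted p = 2.17e-06, edgeR). Dctn2 fell by 0.72 and 1.03, a call lost in RBP4 with TMM factors (adjusted p = 0.14, edgeR).

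The light chain pair Dynll1 and Dynll2 divided in this comparison. Dynll1 was at 337, 392, 459, 545 and 559 cpm in WCH of the RBP4 line and at 210, 227, 246, 249 and 277 cpm in SNF, and fell by 0.92 ± 0.21 there and by 1.08 ± 0.14 in VGAT on the log2 scale (adjusted p = 0.0013 and 1.92e-06, edgeR). Dynll2 was at 151, 161, 183, 214 and 233 cpm in WCH and at 121, 149, 150, 172 and 289 cpm in SNF, and differed by −0.10 and −0.32 (adjusted p = 0.766 and 0.123, edgeR). The log2 ratio of Dynll2 to Dynll1 rose by 0.76 in each line (adjusted p = 0.0326, exact permutation test). With 5 against 5 the smallest exact p of this permutation test is 0.00794, which came to 0.0326 when adjusted over these 144 comparisons of gene pairs.

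**Figure D2:**
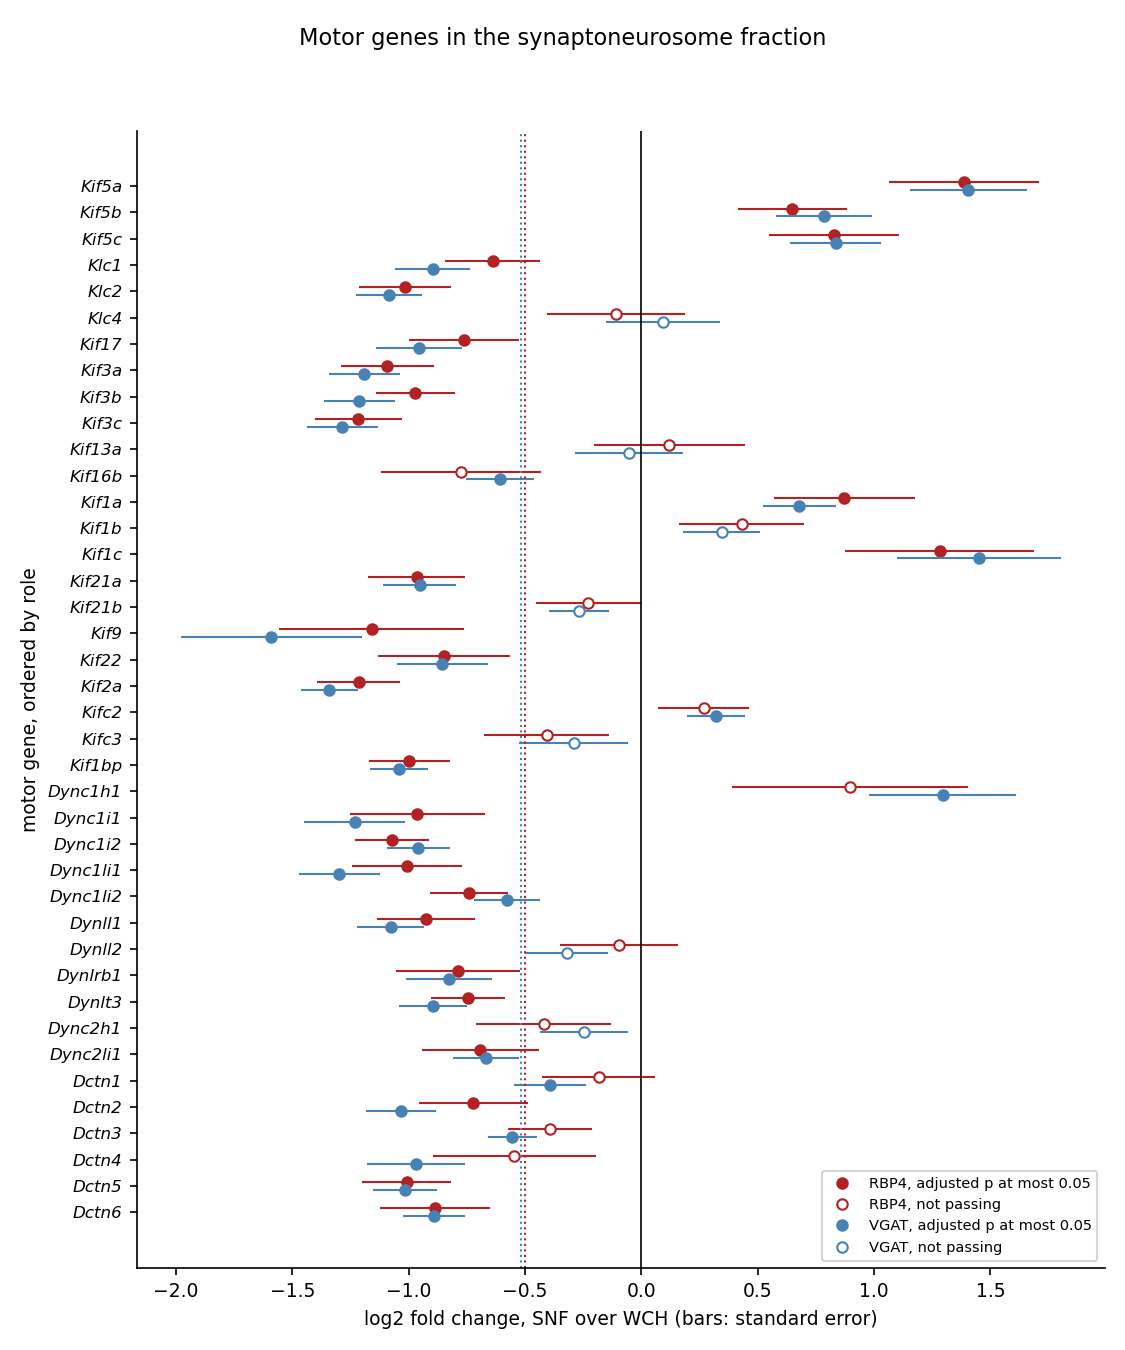
Log2 fold change of SNF against WCH with its SE in each line for the 40 members with a mean of at least 5 cpm, grouped by role. Filled points have an adjusted p of at most 0.05 and dotted lines mark the medians of all genes (−0.50 and −0.52). The heavy chains of kinesin-1 and Kif1a lie right of 0 in both lines, and most dynein, dynactin and kinesin-2 genes lie left of the dotted lines.

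The comparison of ST with SNF asks which transcripts of the synaptic fraction were on tagged ribosomes. Few markers of the tagged cells rose in it. Of 5 layer 5 markers 0 rose in RBP4, and of 5 GABAergic markers 2 rose in VGAT (1 and 0 with TMM factors). Of 8 oligodendrocyte markers, 3 rose and 1 fell in RBP4, and 4 rose and 2 fell in VGAT. The part of RNA from untagged cells in the differences below was not tested. In the RBP4 line 8 of 62 members rose, where 5.64% of all genes rose, and 0 fell (edgeR), where 5.46% of all genes fell. At an unadjusted p of at most 0.05 the count lower in RBP4 was also 0, and by DESeq2 it was 0. In the VGAT line 18 of 63 rose, where 16.3% of all genes rose, and 0 fell (edgeR), where 11.2% fell. The count lower in VGAT was 1 at an unadjusted p of at most 0.05 and 3 by DESeq2 (Dctn5, Dynll1 and Dynlt3), and with the pools as a block 25 rose and 1, Dynlt3, fell (log2 difference −0.33, adjusted p = 0.049, edgeR). With TMM factors 8 rose in RBP4 and 12 in VGAT (6.91% and 11.7% of all genes) and 0 fell in each (5.22% and 14.6%). The median of the members was 0.22 in RBP4 and 0.37 in VGAT on the log2 scale, and that of all genes −0.05 and 0.08.

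The light intermediate chain Dync1li2 had the smallest p of the members in both lines. It was at 91.7, 108, 109, 128 and 141 cpm in SNF and at 166, 258, 259, 301 and 320 cpm in ST of the RBP4 line, and at 96.2, 119, 122, 125 and 134 cpm and 263, 284, 312, 316 and 475 cpm in the VGAT line. No ST library overlapped with SNF in either line, and the log2 fold change was 1.17 ± 0.17 and 1.47 ± 0.14 (adjusted p = 9.9e-05 and 1.02e-07, edgeR). In SNF against WCH the same gene had fallen by 0.74 and 0.58, calls that were lost with TMM factors (adjusted p = 0.058 and 0.29, edgeR). Dync1li1, its paralogue, differed by −0.25 and −0.20 between ST and SNF (adjusted p = 0.548 and 0.427, edgeR). The log2 ratio of Dync1li1 to Dync1li2 fell by 1.64 in the VGAT line (adjusted p = 0.0326, exact permutation test) and by 1.36 in the RBP4 line (adjusted p = 0.056, exact permutation test). This ratio was higher in ST in 0 of 5 pools of each line, which the test did not pair.

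Kifc2, which moves toward the minus end, rose in the same comparison from 149, 190, 191, 222 and 244 cpm in SNF to 257, 342, 439, 476 and 483 cpm in ST of the RBP4 line, again without overlap. Its log2 fold change was 1.0 ± 0.20 in RBP4 and 1.08 ± 0.13 in VGAT (adjusted p = 0.00177 and 1.15e-06, edgeR). Kif5b rose by 1.02 ± 0.24 and 1.13 ± 0.21 (adjusted p = 0.00647 and 0.000234, edgeR), while Kif5a differed by 0.24 and 0.45 (adjusted p = 0.691 and 0.196, edgeR) and Kif5c by 0.35 and 0.32 (adjusted p = 0.457 and 0.249, edgeR). With the pools as a block the Kif5a difference passed in VGAT (adjusted p = 0.0225, edgeR). The log2 ratio of Kif5c to Kif5b, between 1.34 and 1.99 in all SNF libraries, was between 0.57 and 1.23 in ST and fell by 0.66 in RBP4 and by 0.85 in VGAT (adjusted p = 0.0326 in each, exact permutation test).

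The other genes that rose from SNF to ST in both lines were less abundant. Kif26a, an atypical kinesin with no known motor activity, was at 1.56 to 5.57 cpm in SNF and 4.2 to 24.8 cpm in ST of the RBP4 line, and rose by 1.86 ± 0.40 and 1.64 ± 0.36 (adjusted p = 0.004 and 0.00153, edgeR). Klc4, Kifc3 and Kif21b rose by 1.08, 0.84 and 0.72 in RBP4 and by 1.15, 1.26 and 0.91 in VGAT. Leaving out the RBP4 ST library of replicate 4, which stood apart above, left 4 members higher in that line: Dync1li2, Kif5b, Kif26a and Kifc2. Klc4, Kifc3, Kif21b and Kif26b then had adjusted p values of 0.078, 0.19, 0.18 and 0.095 (edgeR). With the whole pool 1, 2, 3 or 4 of the RBP4 line left out, 4, 4, 4 and 3 members rose, Dync1li2, Kif26a and Kifc2 in each case. In the VGAT line 9 rose without replicate 2.

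ST and TRAP are the captures of tagged ribosomes from the synaptic fraction and from the whole cell, and the counts of members called between them were near the shares of all genes. In RBP4 17 members were higher in ST and 20 lower, where 26% and 29.1% of all genes were. In VGAT 26 were higher and 24 lower, where 37.5% and 34% of all genes were. With TMM factors 18 and 20 were higher and lower in RBP4 (28.6% and 26.5% of all genes) and 27 and 24 in VGAT (37.5% and 34.3%). Without the RBP4 ST library of replicate 4, 16 were higher and 20 lower in RBP4, and Kif7 lost its call. In both lines 16 were higher, which is 94.1% of the RBP4 list and 61.5% of the VGAT list. Lower in both lines were 20, which is 100% and 83.3% of the lists. The overlap over all genes was not computed here either. All 8 markers of oligodendrocytes, of astrocytes, of microglia and of endothelial cells were also higher in ST than in TRAP in each line, and the oligodendrocyte gene Mbp was at 16470 to 35120 cpm in ST of all pools, which is above every motor gene named here. The part of that RNA in the differences was not tested.

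All 3 kinesin-1 heavy chains were higher in ST. Kif5a was at 153, 194, 198, 234 and 526 cpm in TRAP of the RBP4 line and at 838, 1343, 1671, 2126 and 2532 cpm in ST, a log2 fold change of 2.71 ± 0.34, and 2.86 ± 0.26 in VGAT (adjusted p = 1.06e-06 and 4.39e-09, edgeR). Kif5b differed by 2.38 ± 0.25 and 2.30 ± 0.21, from 106 to 205 cpm in all TRAP libraries to 436 to 1239 cpm in ST. Kif5c differed by 1.74 ± 0.29 and 1.44 ± 0.20 (adjusted p = 2.47e-05 and 1.2e-06, edgeR). The ratio of Kif5c to Kif5b was lower in ST by 0.69 and 0.87 on the log2 scale (adjusted p = 0.0326 in each, exact permutation test).

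Kinesin-3 genes followed them, with 6 of the 8 called higher in RBP4 and all 8 in VGAT, where 26% and 37.5% of all genes were. Some of these calls rest on few counts in TRAP. Over the TRAP libraries Kif14 held 5 counts in RBP4 and 11 in VGAT, and Kif13b held 58 and 39. Kif28, called in VGAT only, held 6 counts in TRAP of that line. Kif1c was at 0.865, 1.58, 3.06, 3.87 and 5.94 cpm in TRAP of the RBP4 line and at 26.7, 28.7, 34.0, 87.2 and 96.1 cpm in ST, a log2 fold change of 4.16 ± 0.46, and 4.58 ± 0.40 in VGAT (adjusted p = 2.56e-07 and 2.21e-09, edgeR). Kif13a, which carries endosomes, differed by 2.54 ± 0.34 and 2.07 ± 0.24, Kif1a by 1.47 ± 0.31 and 1.58 ± 0.16, and Kif1b by 1.44 ± 0.27 and 1.64 ± 0.17. The minus-end motor Kifc2 was higher in ST by 1.76 and 1.88 (adjusted p = 4.06e-07 and 7.12e-11, edgeR). Kif4, at most 0.957 cpm in any TRAP library, was higher in ST by 4.05 ± 0.60 and 3.21 ± 0.39, a fold change that rests on few counts.

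Dynein and dynactin genes were mostly lower in ST than in TRAP. Of the 6 dynactin genes, 4 were lower in RBP4 and 5 in VGAT, where 29.1% and 34% of all genes were. Dctn5 was lower by 1.53 and 1.38 and Dctn6 by 1.5 and 1.70 on the log2 scale. The light chain genes Dynlt3 and Dynlrb1 fell by 1.61 and 1.5 in RBP4 and by 1.57 and 1.84 in VGAT. Dync1li2 was again apart from its subunit family, higher in ST by 0.75 and 1.29 (adjusted p = 0.000564 and 5.57e-08, edgeR) where Dync1li1 was lower by 1.20 and 1.18 (adjusted p = 0.000181 and 3.47e-06, edgeR). The heavy chain Dync1h1 was higher by 1.58 in VGAT (adjusted p = 0.000138, edgeR) and by 0.55 in RBP4 (adjusted p = 0.366, edgeR), where TRAP of replicate 5 stood at 1078 cpm and the other 4 TRAP libraries at 136 to 225 cpm.

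The light chain pair again divided, in RBP4. Dynll1 was lower in ST than in TRAP by 2.08 ± 0.22 there and by 1.14 ± 0.14 in VGAT (adjusted p = 1.65e-07 and 3.57e-07, edgeR), and Dynll2 differed by −0.07 in RBP4 (adjusted p = 0.829, edgeR) and was lower by 0.99 in VGAT (adjusted p = 4.58e-05, edgeR). The intermediate chains were lower in both lines, Dync1i1 by 1.4 and 1.41 and Dync1i2 by 0.70 and 0.74. Among kinesins, Kif2a was lower by 1.17 and 1.18, Kif3a by 1.15 and 1.12, Kif3c by 1.19 and 0.89 and Kif3b by 0.63 and 0.42, and the light chains Klc1 and Klc2 by 0.93 and 1.43 in RBP4 and by 0.54 and 1.09 in VGAT. All of these were called in both lines, the weakest being Kif3b in VGAT (adjusted p = 0.0178, edgeR). The kinesin-4 pair went in opposite directions, Kif21a lower by 0.67 and 0.76 and Kif21b higher by 1.06 and 1.88, and the log2 ratio of Kif21a to Kif21b was lower in ST by 1.65 in RBP4 and by 2.66 in VGAT (adjusted p = 0.0326 in each, exact permutation test).

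The direction of the differences went with transcript length, taken here from a chosen GENCODE M21 transcript of each gene and not from the lengths behind RPKM. Of the members whose transcript was longer than the members' median of 3528 bases, 14 were higher and 4 lower in ST of the RBP4 line, and of the shorter ones 3 were higher and 16 lower. These counts in the VGAT line were 21 and 5 for the longer and 5 and 19 for the shorter. Across members, Spearman's rho between transcript length and the ST against TRAP log2 fold change was 0.604 (62 genes) in RBP4 and 0.614 (63 genes) in VGAT, beside 0.287 and 0.297 over 14736 and 14666 genes. For SNF against WCH it was 0.304 and 0.434 among the members and 0.00347 and 0.028 over all genes. For ST against SNF it was 0.377 and 0.44 among the members and 0.0324 and 0.0297 over all genes. For TRAP against WCH it was negative, −0.443 and −0.427 among the members and −0.354 and −0.344 over all genes. Longer transcripts thus also tended to be lower in TRAP than in WCH, whose part in the ST against TRAP relation was not tested. Coding length gave 0.638 and 0.671 for ST against TRAP, and the length of the 3′ UTR 0.152 and 0.101. These are descriptions across genes that share the same libraries, the same depth and, within families, similar lengths.

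**Figure D3:**
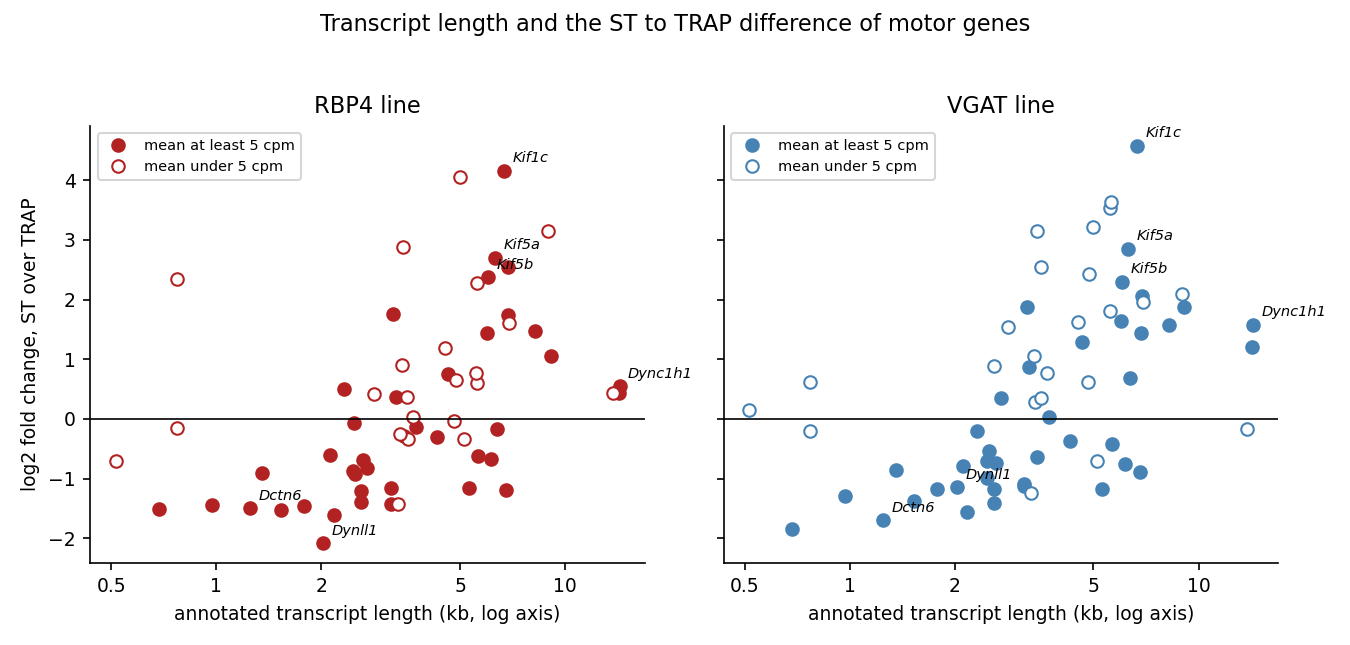
Log2 fold change of ST against TRAP in each line against transcript length in kilobases (log axis), 1 point for each member. Filled points have a mean of at least 5 cpm. Long transcripts such as those of Kif5a, Kif1a and Kif1c lie above 0 and short ones such as those of Dynll1, Dynlt3 and Dynlrb1 below it, with a rank correlation of 0.604 in RBP4 and 0.614 in VGAT.

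TRAP against WCH asks which transcripts were on the ribosomes of the tagged neurons relative to the whole tissue. In RBP4, 7 of 62 members rose and 15 fell, where 8.37% and 31.5% of all genes did, and in VGAT 9 of 63 rose and 28 fell, where 21% and 41.8% did. These counts moved with the scaling: with TMM factors 14 rose and 10 fell in RBP4 (19.3% and 22.4% of all genes), and 15 rose and 22 fell in VGAT (29.4% and 32.5%). The median of all genes went from −0.34 to −0.05 in RBP4 and from −0.31 to −0.06 in VGAT. Only 4 members, Dctn3, Dynll1, Dynlt3 and Klc2, rose in RBP4 without replicate 2, and the 15 that fell there were 7, 9 and 9 without replicates 1, 2 and 4.

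Dynactin and dynein light chain genes made up most of the rise. Dctn3, a small dynactin subunit, was at 59.4, 65.8, 69.2, 92.6 and 94.8 cpm in WCH and at 155, 170, 195, 210 and 220 cpm in TRAP of the RBP4 line, and rose by 1.32 ± 0.18 there and by 1.07 ± 0.10 in VGAT on the log2 scale (adjusted p = 1.27e-05 and 3.43e-08, edgeR). Dctn1, the large subunit that contacts the microtubule, rose by 0.67 and 0.70 (adjusted p = 0.0305 and 0.00054, edgeR). Dynlrb1 and Dynlt3 rose by 0.73 and 0.63 in RBP4 and by 0.96 and 0.35 in VGAT, and Klc2 by 0.73 and 0.37. These 5 genes, Dctn1, Dctn3, Dynlrb1, Dynlt3 and Klc2, rose in both lines.

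The paralogues parted by line in this comparison. Dynll1 rose in TRAP of RBP4 by 0.96 ± 0.21 on the log2 scale (adjusted p = 0.00103, edgeR) and differed by −0.22 in VGAT (adjusted p = 0.182, edgeR). Dynll2 differed by 0.21 in RBP4 (adjusted p = 0.52, edgeR) and rose in VGAT by 1.19 ± 0.18 (adjusted p = 9.89e-06, edgeR). Klc4 rose in VGAT from 2.69, 3.27, 3.53, 3.76 and 4.28 cpm in WCH by 1.44 ± 0.24 (adjusted p = 2.41e-05, edgeR), while in RBP4 it differed by 0.46 (adjusted p = 0.209, edgeR) and passed only with TMM factors (adjusted p = 0.044). Kif21b fell in VGAT by 1.24 ± 0.13 (adjusted p = 9.66e-08, edgeR), and differed by −0.57 in RBP4 (adjusted p = 0.0504, edgeR), which passed with the pools as a block (adjusted p = 0.02).

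Kinesin-3 genes fell in TRAP, 5 of 8 in RBP4 and 7 of 8 in VGAT, where 31.5% and 41.8% of all genes fell. Among them Kif13b and Kif14, which fell in both lines, held the few TRAP counts given above. Kif1c was at 10.6 to 14.9 cpm in WCH of the RBP4 line and at most 5.94 cpm in its TRAP, and fell by 2.08 ± 0.43 there and by 2.06 ± 0.39 in VGAT (adjusted p = 0.000633 and 0.0001, edgeR). Kif13a fell by 1.56 and 1.23, and Kif1b by 1.0 and 1.27. Kif5a fell by 1.08 and 1.01 (adjusted p = 0.0102 and 0.0015, edgeR), whereas Kif5b fell by 0.71 in RBP4 (adjusted p = 0.0196, edgeR), a call lost with TMM factors (adjusted p = 0.19), and differed by −0.39 in VGAT (adjusted p = 0.101, edgeR). Kif5c differed by −0.29 in VGAT (adjusted p = 0.197, edgeR), and in RBP4 it passed only with the pools as a block (adjusted p = 0.0403, against 0.113 without it, edgeR). Dync2h1, the heavy chain of the dynein that works in cilia, fell by 1.22 and 1.28 (adjusted p = 0.00253 and 8.2e-06, edgeR).

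The lines were compared directly within TRAP, ST and WCH, which asks where layer 5 pyramidal cells and GABAergic neurons of the forebrain differed. The paper states that the dissection likely took in some dorsal striatum, because VGAT-TRAP was also enriched in markers of striatal neurons. Brain region may thus differ between the tagged cells of the lines, and its part in the differences was not tested. In WCH 0 members were higher and 0 lower in RBP4 than in VGAT (edgeR), where 0.00592% of all genes were called in each direction. With TMM factors the counts of members in WCH were the same (0.00592% of all genes in each direction), and DESeq2 called 0. At an unadjusted p of at most 0.05 there was 1 member, Kif22, and 426 of all genes. In TRAP 7 of 62 members were higher in RBP4 and 4 lower, where 12.9% and 15.1% of 16898 genes were, and with TMM factors 9 were higher and 3 lower (14.9% and 13.1%). Higher in RBP4 were Dynll1, Kif24, Kif28, Dctn4, Kif21b, Kif3c and Dynlrb2, and lower were Dynll2, Klc4, Dynlt1f and Kif21a. Without VGAT replicate 4 only Dynll1, Kif24, Kif28 and Kif21b were higher.

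The dynein light chain pair moved in opposite directions. In TRAP, Dynll1 was at 644, 700, 953, 1010 and 1163 cpm in RBP4 and at 440, 452, 512, 542 and 552 cpm in VGAT, and was higher in RBP4 by 0.84 ± 0.19 on the log2 scale (adjusted p = 0.00126, edgeR). Dynll2 was at 150, 151, 234, 270 and 285 cpm in RBP4 and at 378, 455, 528, 557 and 598 cpm in VGAT, and was lower in RBP4 by 1.21 ± 0.22 (adjusted p = 7.64e-05, edgeR). Neither gene overlapped between the lines in TRAP, and in WCH neither difference passed (−0.34 and −0.23 on the log2 scale, adjusted p = 1 in each, edgeR). The pair differs at the 5 capital letters shown above and elsewhere in the coding sequence, whereas Dynlt1a, Dynlt1c and Dynlt1f do not differ in theirs.

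Per kilobase, Dynll1 stood at 306 and Dynll2 at 79.7 RPKM in TRAP of the RBP4 line, and at 171 and 184 RPKM in the VGAT line. The log2 ratio of Dynll2 to Dynll1 was −2.05 ± 0.15 in RBP4 TRAP (SD, n = 5) and 0.00 ± 0.26 in VGAT TRAP, a difference of −2.05 (adjusted p = 0.0326, exact permutation test). In WCH it was −1.28 ± 0.17 and −1.42 ± 0.19, so that capture lowered the ratio by 0.78 in RBP4 and raised it by 1.42 in VGAT (adjusted p = 0.0326 in each, exact permutation test). In ST it was −0.04 ± 0.80 in RBP4 and 0.17 ± 0.31 in VGAT, and the RBP4 libraries ran from −0.88 to 0.93. The interaction term, which tests whether ST less TRAP differed between lines, was −0.94 ± 0.27 for Dynll1 (adjusted p = 0.0223, edgeR) and 0.92 ± 0.31 for Dynll2 (adjusted p = 0.0488, edgeR). The Dynll2 call was lost with TMM factors (adjusted p = 0.062) and without the RBP4 ST library of replicate 4 (adjusted p = 0.11).

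**Figure D4:**
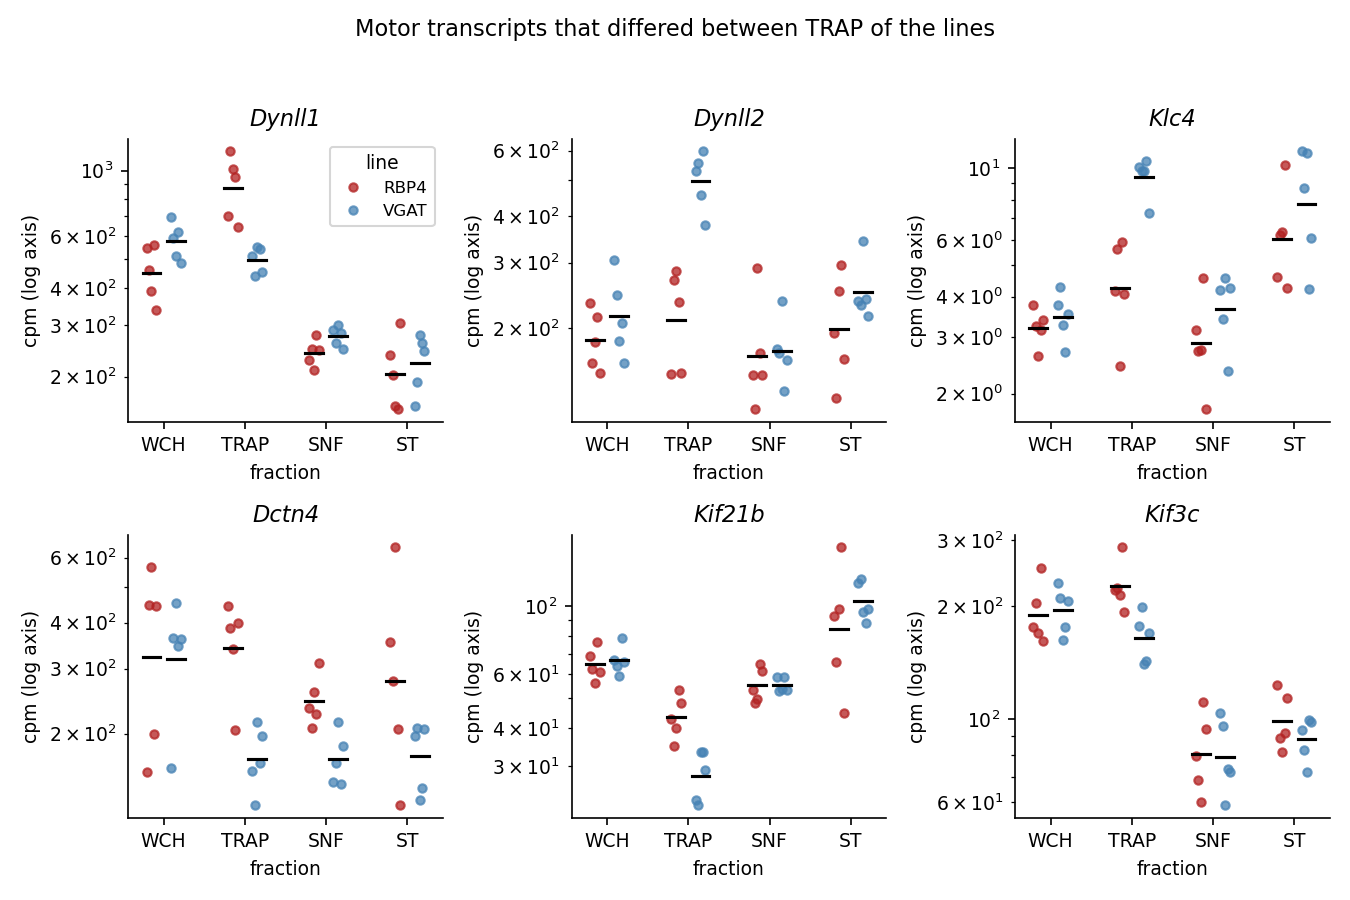
Level in cpm (log axis) of Dynll1, Dynll2, Klc4, Dctn4, Kif21b and Kif3c in each of the 40 libraries, by fraction and line. Points are libraries and black bars geometric means of 5 replicates. In TRAP the Dynll1 points of RBP4 (644 to 1163 cpm) lie above those of VGAT (440 to 552 cpm) and the Dynll2 points of RBP4 (150 to 285 cpm) below those of VGAT (378 to 598 cpm).

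Other members that differed in TRAP spanned several roles. The light chain Klc4 was at 2.44, 4.09, 4.17, 5.64 and 5.92 cpm in RBP4 and at 7.29, 9.81, 9.82, 10.1 and 10.5 cpm in VGAT, and was lower in RBP4 by 1.09 ± 0.26 on the log2 scale (adjusted p = 0.00154, edgeR). Dctn4, which sits at the pointed end of dynactin, was at 204, 338, 386, 399 and 442 cpm in RBP4 and at 128, 158, 166, 198 and 216 cpm in VGAT, and was higher in RBP4 by 1.03 ± 0.34 (adjusted p = 0.0205, edgeR), with 1 RBP4 library within the VGAT range. Kif21b was at 35.0 to 53.1 cpm in RBP4 and at 22.5 to 33.6 cpm in VGAT, a difference of 0.63 ± 0.21 (adjusted p = 0.021, edgeR). Its relative Kif21a was lower in RBP4 by 0.47 ± 0.17 (adjusted p = 0.0334, edgeR), a call lost with TMM factors (adjusted p = 0.053), and the log2 ratio of Kif21a to Kif21b was lower in RBP4 by 1.11 (adjusted p = 0.0326, exact permutation test). Kif3c, the neuronal partner of Kif3a, was higher in RBP4 by 0.46 ± 0.15 (adjusted p = 0.0213, edgeR).

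The remaining calls between TRAP libraries rest on low counts. Kif24, a centriole kinesin of the depolymerising kinesin-13 group, was at 0.238, 0.446, 0.727, 0.773 and 2.52 cpm in RBP4 and at 0, 0.0638, 0.238, 0.255 and 0.437 cpm in VGAT (adjusted p = 0.00426, edgeR). Dynlt1f was at 0.198 to 0.728 cpm in RBP4 and at 0.923 to 1.78 cpm in VGAT (adjusted p = 0.00468, edgeR), and it is a copy of Dynlt1a and Dynlt1c in its coding sequence. Kif28 (adjusted p = 0.0094) and Dynlrb2, the relative of Dynlrb1 (adjusted p = 0.0367, edgeR), at 2.86 to 3.55 cpm in RBP4 and 0.951 to 1.90 cpm in VGAT, complete the list.

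In ST no member was called between the lines. The count was 0 of 62 higher in RBP4, where 0.0592% of all genes were, and 0 lower, where 0.266% were (edgeR), and it was 0 and 0 with TMM factors as well (0.0888% and 0.213% of all genes). At an unadjusted p of at most 0.05, 2 members were higher and 5 lower, beside 1937 of all 16898 genes in either direction. DESeq2 called 1 member, Kif17, higher. Without the RBP4 ST library of replicate 4, 1 member was lower in RBP4, Dync2h1, by 0.98 (adjusted p = 0.0398, edgeR). The genes that divided the lines in TRAP differed in ST by −0.10 (Dynll1), −0.28 (Dynll2) and −0.39 (Klc4), with adjusted p values of 0.886, 0.649 and 0.586 (edgeR). The interaction was called for 4 members, Dynlt1f and Dynll2 upward and Kif24 and Dynll1 downward, where 5.02% and 5.79% of all genes were called upward and downward. With TMM factors it was called for 1 upward and 2 downward (5.48% and 5.43% of all genes). Without the RBP4 ST library of replicate 4, Kif21b (−1.10, adjusted p = 0.0032, edgeR) and Dync2h1 (−1.03, adjusted p = 0.041, edgeR) joined Kif24 and Dynll1, and Dynlt1f was the only gene upward. GABAergic markers summed to a median of 4235 cpm in VGAT TRAP and 113 cpm in RBP4 TRAP, but to 408 and 306 cpm in ST, so that the cell types were less separate in ST, and the part of this in the smaller differences of the motor genes was not tested.

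Of the 63 members, 23 had a mean under 5 cpm, among them the kinesins that work in cell division. Kif11, which pushes spindle poles apart, averaged 1.92 cpm in WCH of the RBP4 line and 2.36 cpm in WCH of the VGAT line, and 1.04 and 1.20 cpm in TRAP. In VGAT it fell in TRAP by 0.96 ± 0.27 and in SNF by 1.02 ± 0.28 on the log2 scale (adjusted p = 0.00447 and 0.00329, edgeR). Kif23, needed for the last step of cell division, fell in RBP4 by 1.4 ± 0.44 in TRAP (adjusted p = 0.0149, edgeR), a call lost with TMM factors (adjusted p = 0.0501). Across these rare members, 7 of 22 tested fell in TRAP of RBP4 and 14 of 23 in VGAT, where 31.5% and 41.8% of all genes fell, and 7 and 12 were higher in ST than in TRAP, where 26% and 37.5% of all genes were. A set of 8 markers of dividing cells summed to a median of 20.4 cpm in WCH, 5.9 in TRAP, 12.2 in SNF and 20.9 in ST of RBP4, and to 24.8, 5.55, 18.5 and 29.0 cpm in VGAT, and their part in these values was not tested.

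The adaptors and regulators that tie motors to cargo, a separate list of 35 genes, were also measured. Of these, 1 rose and 20 fell in SNF of the RBP4 line and 2 rose and 23 fell in VGAT, where 13.4% and 36.1%, and 19.3% and 45.2%, of all genes did. With TMM factors 3 rose and 11 fell in RBP4 (19.3% and 17.9% of all genes). In VGAT 5 rose and 16 fell with these factors (24.6% and 27.9%). From SNF to ST, 10 rose and 1 fell in RBP4 (5.64% and 5.46% of all genes). In VGAT 17 rose and 0 fell (16.3% and 11.2%). With TMM factors 13 rose and 1 fell in RBP4 (6.91% and 5.22%). The counts with these factors in VGAT were 14 and 1 (11.7% and 14.6%). Clstn1, which links cargo to kinesin light chains, rose in SNF by 1.54 and 1.65 on the log2 scale (adjusted p = 0.00011 and 6.9e-07, edgeR), while Rhot1, which holds motors on mitochondria, fell by 1.28 and 1.26. Mapk8ip1, a scaffold that binds kinesin-1, rose from SNF to ST by 1.84 and 1.94 (adjusted p = 4.8e-05 and 6.3e-08, edgeR). Trak2, the adaptor between Rhot1 and kinesin-1 or dynein, was higher in ST than in TRAP by 2.16 and 2.90, where Rhot1 was lower by 1.07 and 1.27. In TRAP against WCH, 1 rose and 12 fell in RBP4 (8.37% and 31.5% of all genes). In VGAT 4 rose and 15 fell (21% and 41.8%). With TMM factors, however, 8 rose and 7 fell in RBP4 (19.3% and 22.4%). The counts with these factors in VGAT were 9 and 9 (29.4% and 32.5%). Among the calls on plain library sizes were Hook3, a dynein activator, which fell by 1.67 and 1.48, and the actin-capping dynactin subunit Capzb, which rose by 0.72 and 0.61.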

How the data were processed

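RNA from the 40 libraries was sequenced as 50-base single reads after SMARTer Ultra Low cDNA synthesis, which does not mark strand. The authors aligned the reads with STAR 2.0.4b and counted uniquely aligned, unambiguous reads per gene with featureCounts 1.4.5. The deposited tables hold raw counts, which were tested. They also hold CPM and RPKM, which the authors scaled to all counts of a library, mitochondrial and rRNA genes included; these were recomputed from the counts within 4.07e-10 and 2.76e-10 and not used further. Levels here are CPM and RPKM of the counts left after mitochondrial, rRNA and tRNA genes were taken out. A gene was fitted where 3 or more libraries of its comparison had 0.5 cpm or more. The test was the quasi-likelihood test of edgeR 4.0.16 (R 4.3.3) on plain library sizes, the authors' scaling, with Benjamini-Hochberg adjustment over all genes and a threshold of 0.05. Fractions were compared within each line over its 20 libraries, and lines over TRAP, ST or WCH libraries. TMM factors, DESeq2 1.42.0, no filter, the likelihood ratio test, a replicate block, another pseudocount for ratios and leaving out each replicate were tried. Log2 ratios of 12 gene pairs in 12 comparisons were compared by two-sided exact permutation tests, adjusted over all 144.

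Libraries with the same number within a line were taken to come from the same pool. The labels give the number but name no pool, and the paper states that the fractions of each replicate were collected in parallel. Their deviations from the group means correlated more than those of different pools, for example by 0.483 against −0.117 for ST and SNF of VGAT and 0.226 against −0.0561 for SNF and WCH of RBP4, but not for ST and TRAP of RBP4 (−0.0177 against −0.00051). The labels do not tie the numbers of the lines to each other. No pair of replicates was a repeat of the same library. Each p measures the spread between pools.

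On simulated counts with 200 genes changed by a known factor, the edgeR fit recovered 96 for SNF against WCH in RBP4, 177 for the same comparison in VGAT and 126 for TRAP between lines. The members and lists were chosen with earlier results of these data known. Genes were named by role: both genes of each paralogue pair, otherwise up to 3 per role with the smallest p among those passing, and every gene of a count of 5 or fewer. The regulators named are up to 2 per direction with the smallest p. Sequences come from GRCm38 with GENCODE M21 models.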

Additional observations from a re-analysis of the deposited data

Results flagged for a closer look

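In groups of 5 libraries, 34 of 344 groups of the members' values held 1 library farther from the others than Dixon's test allows, where chance flags about 5% of groups. TRAP of RBP4 replicate 5 was far above the other libraries for 5 members, at 1078 cpm for Dync1h1 (the others 135.6 to 225), 1176 for Kif1a (473.4 to 640.8), 944.2 for Kif1b (447.1 to 584.9), 526.1 for Kif5a (153 to 233.6) and 2.521 for Kif24 (0.2384 to 0.7735). The same pool held Dync1h1 at 693.6 cpm in WCH (196.9 to 248.8). In that pool Mbp stood at 2705 cpm in TRAP (the others 135 to 385) and 2274 in WCH (696 to 1110).

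ST of RBP4 replicate 5 was high for 4 genes, Dctn3 at 98.16 cpm (59.9 to 66.35), Dctn6 at 129.9 (51.38 to 64.66), Kif1bp at 140.5 (88.13 to 97.62) and Dynlrb2 at 5.575 (0.4235 to 1.841).

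Replicate 3 was far from the others in SNF of both lines. In RBP4 SNF it was at 30.21 cpm for Kif13a (11.91 to 16.64), 4.986 for Kif4 (1.957 to 2.778), 562.5 for Kif5b (276.4 to 314.2) and 2121 for Kif5c (790.3 to 1152). In VGAT SNF it was at 31.51 for Kif13a (10.44 to 15.2), 56.53 for Kif1c (15.06 to 26.06), 5.027 for Kif26a (1.492 to 2.283) and 705.7 for Kif5b (289.8 to 366). In VGAT ST it was at 96.82 for Dync1i2 (121.6 to 130.1), 475.1 for Dync1li2 (262.8 to 316), 341.9 for Dynll2 (216 to 239.4) and 7.793 for Kif4 (3.273 to 4.375), in VGAT TRAP at 5.166 for Kif1c (1.211 to 2.187) and 204.9 for Kif5b (166 to 175.6), and in RBP4 WCH at 379.2 for Dynlt3 (320.6 to 336.3) and 740.6 for Kif5c (629 to 655.1). The libraries of replicate 3 also held more mitochondrial counts, 40.2% and 41.9% in SNF of RBP4 and VGAT (the others 11.2% to 19.4%) and 15.8% and 19.0% in ST (the others 2.71% to 7.08%), whose part in these values was not tested.

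The others were single values: VGAT TRAP of replicate 1 for Dctn1 at 143.6 cpm (115.1 to 122.1), VGAT TRAP of replicate 5 for Dync1h1 at 305.1 (126 to 170.7) and Klc4 at 7.29 (9.807 to 10.52), RBP4 TRAP of replicate 4 for Kifc3 at 9.874 (5.842 to 6.954), RBP4 WCH of replicate 4 for Kif3b at 93.81 (70.7 to 75.48), and VGAT WCH of replicate 1 for Kif28 at 0.9244 (0.2719 to 0.4582), of replicate 2 for Klc1 at 232.8 (164.2 to 175.6) and of replicate 5 for Klc2 at 30.78 (33.83 to 34.53).

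The difference between ST and TRAP itself differed between the lines for 4 members, tested by the interaction term: Dynll1 by −0.939, Dynll2 by 0.922, Dynlt1f by 1.73 and Kif24 by −2.95 on the log2 scale (RBP4 less VGAT, edgeR). Of all genes, 5.02% were called upward and 5.79% downward. The Dynll2 call was lost with TMM factors, and those of Dynlt1f and Kif24 rest on low counts.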

How the results depend on the processing

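Of the single-gene results, 0 reversed with TMM factors (476 kept their side of the threshold, 15 became and 25 ceased to be called), 0 with the likelihood ratio test, without the filter, with the replicate block (20 became called) or with another pseudocount, and 1 with DESeq2, Dctn1 in SNF against WCH of VGAT, at 0.064 (adjusted p = 0.771) against −0.39. Leaving out replicates reversed 0, and 313 of these values ceased to be called. Counts of called members moved by over 1.5 times as follows. In RBP4, TRAP against WCH rose from 7 higher to 14 with TMM and 17 with DESeq2, and SNF against WCH fell from 24 lower to 12 and 10. In VGAT, TRAP against WCH rose from 9 higher to 15 with either, SNF against WCH fell from 31 lower to 19 with DESeq2, and ST against SNF went from 0 lower to 3 with DESeq2 and 1 with the replicate block. Between lines, ST had 1 higher with DESeq2 instead of 0, and the interaction had 1 upward with TMM, 0 without the filter and 4 downward with the likelihood ratio test, instead of 2 and 2. Between the lines, same-numbered libraries correlated by 0.211 on average in WCH (−0.251 to 0.632), 0.157 in TRAP (−0.0264 to 0.425) and 0.0505 in ST (−0.512 to 0.566), against −0.0506, −0.0344 and −0.0115 for other numbers. As not every pair correlated, the numbers were not taken to pair the lines, and a replicate block left the counts at 0 and 0, 7 and 4, and 0 and 0. Leaving out the RBP4 ST library of replicate 4, chosen after seeing the data, gave 4 higher in ST against SNF instead of 8, 1 lower in ST between lines, and 1 upward and 4 downward for the interaction. With each replicate left out in turn, the counts higher and lower were 4 to 8 and 7 to 20 (TRAP against WCH), 1 to 7 and 17 to 30 (SNF against WCH), 3 to 8 and 0 to 0 (ST against SNF) and 15 to 23 and 20 to 22 (ST against TRAP) in RBP4. In VGAT they were 6 to 8 and 24 to 30, 7 to 8 and 28 to 32, 9 to 17 and 0 to 1 (without replicate 4), and 26 to 26 and 22 to 24. Between lines they were 0 to 0 and 0 to 0 in WCH, 4 to 9 and 3 to 4 in TRAP, 0 to 0 and 0 to 0 in ST, and 0 to 2 and 1 to 3 for the interaction, with 0 upward without RBP4 replicates 1 or 3 or VGAT replicates 1, 2, 4 or 5 and 1 downward without VGAT replicates 2, 4 or 5. The paralogue ratios gave 35 calls of 144 with either pseudocount, and 0 in each set without a replicate, where even the smallest exact p of 4 against 4 did not pass after adjustment. The cause was not tested for any of these. Depth limits members with few counts in TRAP, such as Kif4 at a mean of 0.236 cpm in RBP4 and 0.488 cpm in VGAT.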
